A study of Mus musculus with 8 samples.

Results

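The 7 mouse genes of the equilibrative (SLC29) and concentrative (SLC28) nucleoside transporter families were read across genotype and age in the annulus fibrosus, the fibrocartilage ring of the intervertebral disc. The genes were Slc29a1, Slc29a2, Slc29a3, Slc29a4, Slc28a1, Slc28a2 and Slc28a3. They were taken as whole families. All 7 had a probe set that names no other gene, and together they had 9 of the 41345 probe sets. A further probe set, shared by Slc29a3 and a second gene, was not used. The arrays were Affymetrix arrays of RNA from the thoracic annulus of Black 6 mice. WT and ENT1-null mice were each taken at ages of 2 and 6 months, which gave 4 groups of 2 arrays. The ENT1-null mice lacked exons 2 to 4 of Slc29a1, which encodes the transporter ENT1. No group carried another allele or a treatment, as far as the labels say. The labels give no Cre or other tissue restriction for this deletion. Each array held RNA of 5 to 6 pooled annulus tissues, so that differences between single mice cannot be seen. The labels do not say whether both pools of a group were from different mice, and p-values measure the spread between these arrays, which may be technical.

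Nucleosides are hydrophilic and cross membranes on carriers. Equilibrative transporters let a nucleoside run down its gradient in either direction, and ENT1 is the main route by which many cells take up extracellular adenosine and so end its signal at adenosine receptors. Concentrative transporters couple uptake to sodium and move nucleosides against a gradient. In the disc, loss of ENT1 in mice is known for ectopic mineralization of the annulus and of spinal ligaments.

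At 6 months, 3 members passed the test of genotype: Slc29a1 was lower in ENT1-null, and Slc28a2 and Slc29a3 were higher. The sequences before the start of these 3 genes are shown because they are the members the results turn on. The GC content was lower for Slc28a2 than for Slc29a1 and Slc29a3, which were close to each other. They were taken from RefSeq (build GRCm38.p6), where all 7 members have at least 1 start and Slc29a1 has 8. For Slc29a1 the start farthest upstream was taken. Each sequence holds the 250 bases before the start, 5′ to 3′ on the gene's strand, and capitals mark motif matches. The motifs searched on both strands were the GC box GGGCGG, the TATA box TATAAA, the E-box CACGTG and AGGAAGT, a core of ETS factor sites. No 2 matches overlapped in these 3 sequences.
Slc29a1 (chr17:45599619-45599868, minus strand): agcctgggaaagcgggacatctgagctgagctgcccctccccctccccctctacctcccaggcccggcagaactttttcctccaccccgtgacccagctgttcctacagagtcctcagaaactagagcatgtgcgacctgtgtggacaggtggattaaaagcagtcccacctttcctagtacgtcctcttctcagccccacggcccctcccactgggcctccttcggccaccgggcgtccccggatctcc
Slc29a3 (chr10:60752783-60753032, minus strand): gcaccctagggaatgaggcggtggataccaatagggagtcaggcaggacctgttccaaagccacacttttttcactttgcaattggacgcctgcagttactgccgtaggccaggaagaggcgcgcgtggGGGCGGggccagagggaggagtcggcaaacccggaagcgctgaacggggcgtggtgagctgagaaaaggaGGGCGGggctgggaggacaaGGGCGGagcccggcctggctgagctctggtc
Slc28a2 (chr2:122426185-122426434, plus strand): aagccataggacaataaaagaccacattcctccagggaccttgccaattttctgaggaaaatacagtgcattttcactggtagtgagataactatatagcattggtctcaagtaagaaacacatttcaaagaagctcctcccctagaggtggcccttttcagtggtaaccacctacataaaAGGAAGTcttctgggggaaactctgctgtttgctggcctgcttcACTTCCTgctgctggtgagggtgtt
The Slc29a3 sequence held 3 GC boxes, at 121, 51 and 31 bases before the start, and a GC content of 63.6%. The Slc28a2 sequence had a GC content of 45.2%, no GC box, and 2 matches to AGGAAGT, at 69 and 25 bases before the start. The Slc29a1 sequence had a GC content of 62.4% and no match to any of the 4 motifs. Of the 8 Slc29a1 starts, 4 had a GC box within 250 bases, and over all 8 the GC content ran from 51.2% to 73.2%. Among all 32851 windows of this length the median GC content was 52.4%. Of these windows 32.7% held the GC box, 12.4% the TATA box, 6.02% the E-box and 7.69% AGGAAGT. These matches are descriptions of letters, and no binding was measured.

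Levels are log2 values as deposited, and a difference of 1 on this scale is 2-fold. Genes were tested where their mean over the 8 arrays reached 6.21 (log2), the 30th percentile of gene means, which left 15526 genes. Of the members, 6 were tested, and Slc28a3 fell just below this level. Levels of different genes are not set against each other, because probe sets differ in how brightly they report. Differences are given with the standard error of a limma fit to all 8 arrays and a p-value adjusted over the 15526 genes by the Benjamini-Hochberg method. An adjusted p below 0.05 is called passing.

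**Figure D1:**
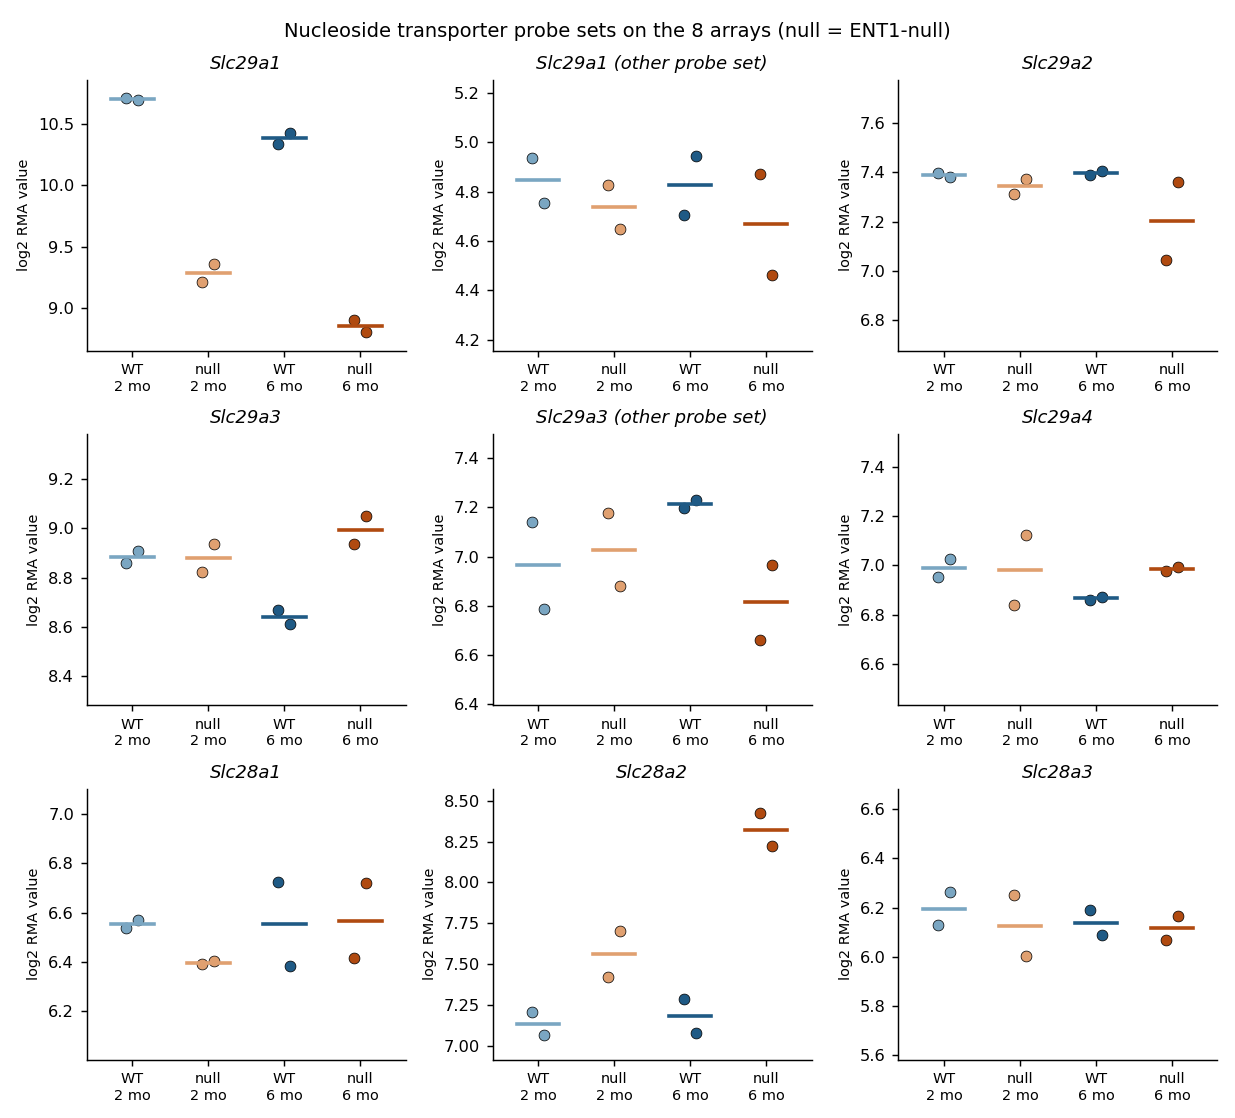
Log2 value of each of the 9 single-gene probe sets (y axis, a separate range in each panel) in the 4 groups (x axis). Points are arrays and bars are means of 2 arrays. The tested Slc29a1 probe set separates WT from ENT1-null at both ages and the other does not. Slc28a2 is highest on both 6 month ENT1-null arrays, and the 6 month WT arrays are lowest on the tested Slc29a3 probe set and highest on the other.

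The annulus label was set against its markers. All 12 annulus and tendon markers and all 12 cartilage markers listed for this check were above the filter level. So were all 14 neutrophil, all 12 skeletal muscle and all 10 endothelial markers. Passing this level therefore does not tell annulus from other tissue. The mean of the annulus list lay between 9.98 and 10.57 on the 8 arrays and that of the cartilage list between 9.85 and 11.08. The tissue's own markers moved with genotype at 6 months: 10 of 12 cartilage markers were lower, and of the annulus markers 5 were lower and 3 higher. Of all genes 17.6% were lower and 21.2% higher. The cartilage mean was 10.67 and 10.70 on the 6 month WT arrays and 9.90 and 9.85 on those of 6 month ENT1-null. The part of this shift in the transporter results, the Slc29a1 level included, was not tested. Between the 2 arrays of a group the Pearson r over genes was 0.983 to 0.984.

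Among the equilibrative transporters, Slc29a1 is the deleted gene and its level checks the genotype labels. In WT it was 10.71 and 10.69 at 2 months and 10.34 and 10.43 at 6 months. In ENT1-null it was 9.21 and 9.36 at 2 months and 8.90 and 8.80 at 6 months. Every ENT1-null array lay below every WT array, so the level follows the genotype labels. On the linear scale the ENT1-null level was 37.6% of WT at 2 months and 34.6% at 6 months. The log2 difference was −1.41 ± 0.09 at 2 months (n = 2 and 2, limma adjusted p = 0.00724) and −1.53 ± 0.09 at 6 months (limma adjusted p = 0.000354). In size of fall, Slc29a1 ranked 7 of 15526 genes at 2 months and 82 at 6 months. The 2 month call ended without 2 month WT replicate 1 (−1.40, limma adjusted p = 0.149), without 2 month ENT1-null replicate 1 (−1.34, adjusted p = 0.0616) or 2 (−1.48, adjusted p = 0.0643), and with only the 2 groups compared (−1.41, adjusted p = 0.0598).

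The second Slc29a1 probe set stayed between 4.46 and 4.95 on the 8 arrays, with all 4 groups overlapping. Its difference was −0.11 ± 0.16 at 2 months and −0.16 ± 0.16 at 6 months, in a limma fit to all 23521 single-gene probe sets (adjusted p = 0.796 and 0.507). The exons that either probe set reads were not analysed here. The signal left in ENT1-null can therefore not be assigned to transcripts with or without the deleted exons.

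Slc29a1 was also lower at the later age. From high to low, the groups were WT at 2 months, WT at 6 months, then ENT1-null at 2 and at 6 months. The first pair of neighbours, the WT ages, differed by −0.32 ± 0.09 and did not pass (limma adjusted p = 0.269), although their arrays did not overlap. The last pair, the ENT1-null ages, differed by −0.44 ± 0.09 and passed (limma adjusted p = 0.0136). The call was lost without 2 month ENT1-null replicate 2 (−0.36, adjusted p = 0.0644) and without 6 month ENT1-null replicate 2 (−0.39, adjusted p = 0.0702). In the same comparison 10.2% of all genes were lower and 11.9% higher. Lower were 11 of 12 cartilage markers (median −0.95) and 4 of 12 annulus markers. Higher were 6 of 9 mitosis and 3 of 4 erythroid markers. The part of these markers in the Slc29a1 difference was not tested. The age difference itself was not shown to depend on genotype: the interaction was −0.12 ± 0.13, with a 95% interval from −0.41 to 0.18 (limma adjusted p = 0.599).

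The deletion was also set against its surroundings on chromosome 17. Of the 10 nearest tested genes, 5 on each side, none passed at 2 months, where their differences lay between −0.23 for Mrpl14, a mitochondrial ribosomal protein, and 0.08 for Mrps18a, another. At 6 months Nfkbie, an inhibitor of NF-κB, was higher by 0.89 ± 0.14 (limma adjusted p = 0.00202). Vegfa, the angiogenic growth factor, was lower by −0.74 ± 0.14 (limma adjusted p = 0.00579). The other 8 neighbours did not pass, at an age where 38.8% of all genes passed. Mymx, a muscle fusion peptide and the next gene on its side, gave 0.09 ± 0.11. Slc35b2, a carrier of the sulfate donor PAPS and the nearest tested gene on the other side, gave −0.05 ± 0.09, with 2 untested genes between it and Slc29a1.

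**Figure D2:**
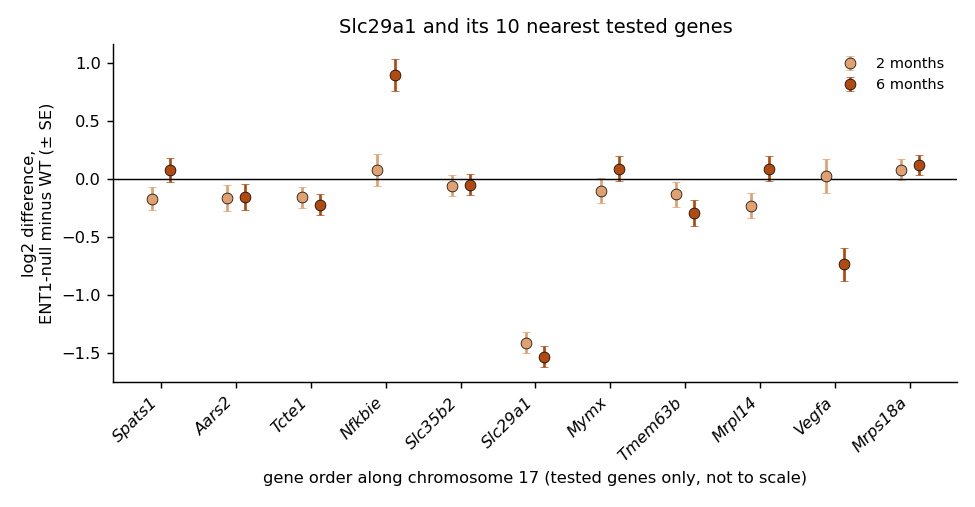
Log2 difference between ENT1-null and WT (y axis, ± SE) at 2 and 6 months for Slc29a1 and the 5 nearest tested genes on each side, in chromosomal order (x axis, not to scale). Slc29a1 is the only one of the 11 below −1, and Nfkbie and Vegfa are the neighbours that passed at 6 months.

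Slc29a2 encodes ENT2, a second broad equilibrative carrier that also takes nucleobases. Its level was 7.40 and 7.38 in 2 month WT and 7.39 and 7.41 in 6 month WT. In 2 month ENT1-null it was 7.31 and 7.37, and in 6 month ENT1-null 7.04 and 7.36. All 4 ENT1-null arrays lay below all 4 WT arrays, by little except for 6 month ENT1-null replicate 1. The difference was −0.05 ± 0.11 at 2 months (limma adjusted p = 0.846) and −0.20 ± 0.11 at 6 months (limma adjusted p = 0.2). The 95% interval at 6 months ran from −0.45 to 0.06. It uses a spread shared by the 4 groups, while the 6 month ENT1-null arrays lay 0.31 apart. Without 6 month ENT1-null replicate 2 the 6 month value was −0.35 and passed (limma adjusted p = 0.0324), and without replicate 1 it was −0.04.

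Slc29a3 encodes ENT3, a carrier of lysosomal and other intracellular membranes that releases nucleosides from degraded nucleic acid. Its level was 8.86 and 8.91 in 2 month WT and 8.82 and 8.94 in 2 month ENT1-null, which overlapped. The 6 month WT arrays gave 8.67 and 8.61 and the 6 month ENT1-null arrays 8.94 and 9.05, which did not overlap. The log2 difference was 0.00 ± 0.09 at 2 months (limma adjusted p = 0.987), and Slc29a3 rose by 0.35 ± 0.09 at 6 months (limma adjusted p = 0.015), a 1.28-fold difference. The lowest arrays were those of 6 month WT, and in WT the 6 month level differed from the 2 month level by −0.24 ± 0.09 without passing (limma adjusted p = 0.32). In ENT1-null the age difference was 0.11 ± 0.09 (limma adjusted p = 0.397). In the order of the groups, ENT1-null at 6 months was highest and WT at 6 months lowest, and the 2 month groups between them did not differ beyond their spread. The interaction was 0.36 ± 0.12 and did not pass (limma adjusted p = 0.115).

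The Slc29a3 rise had limits. It ended with quantile normalization applied again (0.25, limma adjusted p = 0.0595), without 6 month WT replicate 2 (0.33, adjusted p = 0.0866) and without 6 month ENT1-null replicate 2 (0.30, adjusted p = 0.0696). The second Slc29a3 probe set went the other way at 6 months, with 7.20 and 7.23 for WT and 6.66 and 6.97 for ENT1-null. That difference was −0.40 ± 0.16 and did not pass over the 23521 probe sets (limma adjusted p = 0.111), while the first passed there (limma adjusted p = 0.0261). The 2 probe sets of this gene therefore disagree in direction at 6 months.

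Slc29a4 encodes ENT4, also called PMAT, which carries monoamines and, at acid pH, adenosine. Its levels lay between 6.84 and 7.12, both on 2 month ENT1-null arrays. The 6 month WT arrays gave 6.86 and 6.87, and the 6 month ENT1-null arrays 6.98 and 6.99. The arrays of each group lay close together and did not overlap at that age, but the difference of 0.12 ± 0.11 did not pass (limma adjusted p = 0.407). At 2 months it was −0.01 ± 0.11 (limma adjusted p = 0.982), a sign that turned with arrays centred on their medians.

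Among the concentrative transporters, Slc28a2 encodes CNT2, which takes up purine nucleosides, adenosine among them. Its level was 7.20 and 7.06 in 2 month WT and 7.29 and 7.08 in 6 month WT. It was 7.42 and 7.70 in 2 month ENT1-null and 8.42 and 8.22 in 6 month ENT1-null. All 4 ENT1-null arrays were above all 4 WT arrays, and both 6 month ENT1-null arrays were above both at 2 months. At 6 months Slc28a2 rose by 1.14 ± 0.13 in ENT1-null, a 2.21-fold difference (limma adjusted p = 0.000713, 95% interval 0.83 to 1.45). This call held under all 17 alternatives, with values from 1.04 to 1.25. The looser cut among them, adjusted p below 0.1, could not have ended it. At 2 months the difference was 0.43 ± 0.13 and did not pass (limma adjusted p = 0.139).

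With age, Slc28a2 rose by 0.76 ± 0.13 within ENT1-null (limma adjusted p = 0.00766), and in WT the difference was 0.05 ± 0.13 (limma adjusted p = 0.899, 95% interval −0.26 to 0.36). The interaction, 0.71 ± 0.19, did not pass at 0.05 (limma adjusted p = 0.0663, between 0.0556 and 0.19 over its 16 alternatives). From high to low, ENT1-null at 6 months came before ENT1-null at 2 months, and the WT ages at the low end overlapped. A neighbouring copy, Slc28a2b, lay between 5.42 and 6.03 on the 8 arrays, under the filter level. Its genotype difference was −0.50 at 2 months and −0.08 at 6 months, with no test.

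Slc28a1 encodes CNT1, which prefers pyrimidine nucleosides. Its levels lay between 6.38 and 6.72, and at 6 months the arrays of each genotype spanned nearly that whole range. The difference was −0.16 ± 0.14 at 2 months (limma adjusted p = 0.578) and 0.01 ± 0.14 at 6 months (limma adjusted p = 0.946). Slc28a3 encodes CNT3, which takes purine and pyrimidine nucleosides. It stayed between 6.00 and 6.26 in all groups, and in the fit to all 23521 probe sets gave −0.07 ± 0.11 at 2 months (limma adjusted p = 0.819) and −0.02 ± 0.11 at 6 months (limma adjusted p = 0.909).

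**Figure D3:**
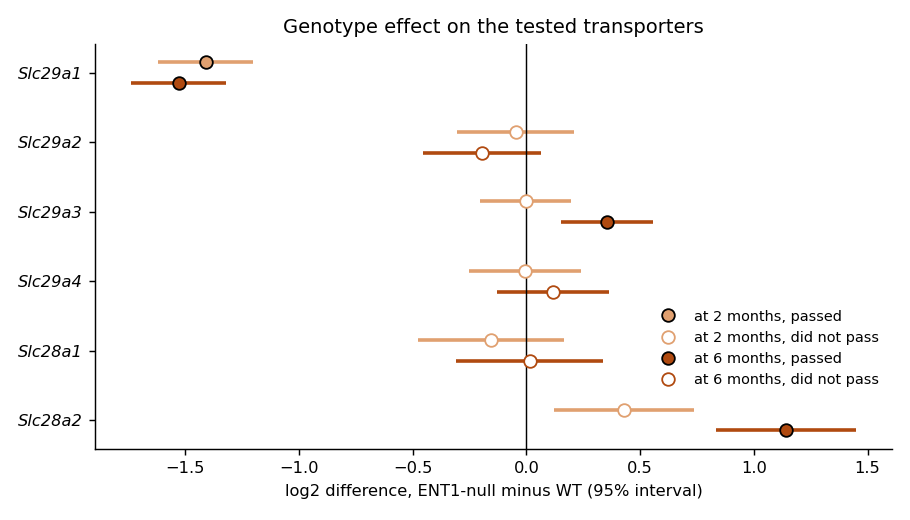
Log2 difference between ENT1-null and WT (x axis) for the 6 tested transporters (y axis) at 2 and 6 months, with 95% intervals of the limma fit. Filled points passed and open points did not. Slc29a1 lies near −1.5 at both ages, and the Slc28a2 interval at 6 months starts at 0.83.

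Counted over both families, 1 of 6 tested members passed at 2 months, where 0.683% of all genes did. It was Slc29a1, the deleted gene, whose level checks the genotype labels, and the other 5 tested members did not pass. Slc29a1 was lower, as were 0.386% of genes, and 0.296% were higher. At 6 months 3 of 6 passed against a background of 38.8%. Of the 3, 2 were higher (21.2% of genes) and 1, again the deleted gene, was lower (17.6% of genes). The median difference of the 6 members at 6 months was 0.07 and that of all tested genes −0.03. The 2 genotypes had separate array values in 4 of 6 members at 2 months and in 5 of 6 at 6 months, where 52.3% and 72.3% of all genes did. Slc29a1 is in both of these counts. In the fit across ages, with 4 arrays of each genotype, 2 members passed against 24.5% of genes (12.8% higher and 11.7% lower). These were Slc29a1 (−1.47 ± 0.07, limma adjusted p = 0.000304) and Slc28a2 (0.79 ± 0.16, limma adjusted p = 0.013). By age within ENT1-null, the same 2 genes were called, Slc28a2 higher and Slc29a1 lower, against 22.2% of genes (11.9% higher and 10.2% lower). The arrays of the 2 ages were apart in 3 of 6 members, against 59.8% of genes. By age within WT, limma called 0 of the 6 and 0% of all genes, while 2 members, Slc29a1 and Slc29a3, had an unadjusted p below 0.05, as had 2067 of the 15526 genes. In 3 members the WT ages had separate array values, against 49.4% of genes. The interaction called 0 of the 6 in limma, with 2, Slc28a2 and Slc29a3, at an unadjusted p below 0.05, a level that 4186 of the 15526 genes reached. Of all genes it called 4.45%, 2.56% higher and 1.89% lower.

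At 6 months, lists of blood and marrow cell markers had higher means in ENT1-null, where Slc28a2 and the tested Slc29a3 probe set were also higher. At 2 months the macrophage and neutrophil means were higher in ENT1-null too, while the Slc29a3 arrays of the genotypes overlapped. The mean of the 14 macrophage markers was 7.98 and 7.84 on the 6 month WT arrays and 8.95 and 9.10 on those of 6 month ENT1-null. Of the 13 tested, 11 were higher at 6 months and none lower. The scavenger receptor Cd163 was under the filter level. The 2 month arrays gave 7.51 and 8.08 for WT and 8.36 and 8.43 for ENT1-null. The 14 neutrophil markers were all higher at 6 months, with list means of 10.03 and 8.44 for WT and 11.74 and 11.69 for ENT1-null. The 2 month WT arrays gave means of 8.62 and 9.86 and the 2 month ENT1-null arrays 10.67 and 11.02, and no neutrophil marker passed at that age. Of the other blood and marrow lists, 2 of 4 tested eosinophil and 1 of 4 erythroid markers were higher at 2 months. Of all genes 0.296% were. No macrophage, B cell, T and NK cell, osteoclast or mitosis marker passed at 2 months. Other lists moved at 6 months. The eosinophil mean was 6.69 and 6.30 on the 6 month WT arrays and 9.45 and 9.22 on the ENT1-null arrays of that age, with all 4 tested markers higher. The erythroid mean went from 8.70 and 7.83 to 10.31 and 10.58 (4 of 4 higher), and the mitosis mean from 8.35 and 7.41 to 10.11 and 10.34 (9 of 9 higher). The B cell mean went from 7.43 and 6.90 to 8.41 and 8.40 (6 of 8 higher), and the T and NK cell mean from 6.71 and 6.37 to 7.59 and 7.73 (3 of 5 higher). The osteoclast mean went from 8.09 and 8.13 to 9.44 and 8.99 (7 of 7 higher), and 3 of 10 endothelial markers were higher. The 6 month counts of this paragraph stand beside 21.2% of all genes higher and 17.6% lower. With age in ENT1-null, where Slc28a2 rose, 5 of 13 macrophage, 1 of 14 neutrophil, 3 of 4 eosinophil and 4 of 8 B cell markers were higher. Of all genes 11.9% were higher in that comparison. The cartilage list was lower in both comparisons, as given above. Skeletal muscle markers were lower at 6 months, from 10.49 and 10.33 in WT to 7.41 and 8.56 in ENT1-null, with 10 of 12 lower. At 2 months the muscle mean went the other way, 8.64 in WT and 9.69 in ENT1-null. The arrays overlapped there and no muscle marker passed. Other lists moved less at 6 months: 2 of 6 osteoblast markers were higher and 2 lower, and 1 of 6 adipocyte markers was higher. None of 5 tested nucleus pulposus and notochord markers passed. The part of these cells in the transporter results was not tested. In a tissue sample, a change in the share of a cell type and a change of RNA per cell cannot be told apart.

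**Figure D4:**
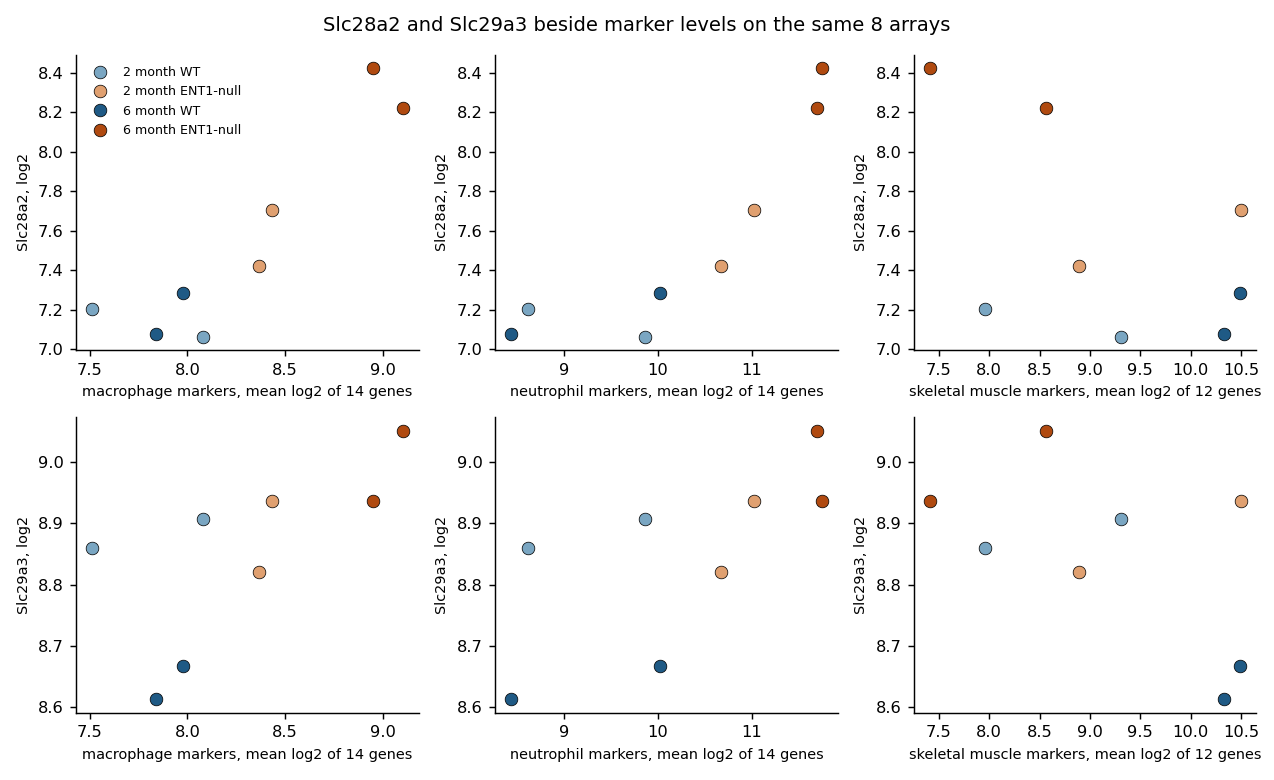
Log2 level of Slc28a2 (upper row) and Slc29a3 (lower row) on the 8 arrays (y axis) against the mean log2 level of the macrophage, neutrophil and skeletal muscle marker lists on the same arrays (x axis). The 6 month ENT1-null arrays are highest in Slc28a2 and in the macrophage and neutrophil lists, and the 6 month WT arrays are lowest in Slc29a3 (its tested probe set).

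The tested genes whose pattern over the 8 arrays was most like that of each member were named by Pearson r, as a description. The 8 arrays share 4 groups, so a high r reflects group differences. Nearest to Slc28a2 were Anxa1, annexin A1 of leukocytes and epithelia (r = 0.995), the immunoglobulin segment Igkj1 (0.995) and the kinase Mapkapk3 (0.992). In all, 1785 genes had an r above 0.9 with Slc28a2, against 188 with Slc29a3 and 11 with Slc28a1. Nearest to Slc29a3 were Pigt, a subunit of the GPI transamidase (0.986), Sppl3, an intramembrane protease (0.98), and AI506816 (0.972). Nearest to Slc29a1 were the sialyltransferase St8sia1 (0.987), the Golgi tethering subunit Cog6 (0.987) and Zfp879 (0.984), whose differences at 6 months, −0.32, −0.41 and −0.39, were smaller than that of Slc29a1. Slc29a2 was most like Arid3c (0.981), Camk2b (0.975) and Tmprss6 (0.974). Slc29a4 was most like Trim8 (0.961), Serhl (0.956) and Srxn1 (0.951). Slc28a1 was most like Grm4 (0.965), Ankrd36 (0.961) and Gipc3 (0.943). Between members, Slc29a1 and Slc28a2 had an r of −0.887 and Slc29a3 and Slc28a2 one of 0.67.

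Genes set around these transporters were taken as 6 lists, with 53 different tested genes. Not all of them handle nucleosides: the lists also hold lysosomal proteins, peptide carriers and a surface peptidase. Acp5, among them, is also in the osteoclast marker list, and Alpl is also in the osteoblast marker list. The lists were chosen with earlier results of these data known, so their counts are a description and no test of a pathway. At 6 months 34 of the 53 passed (64.2%, against 38.8% of all genes), 27 higher and 7 lower, where 21.2% of all genes were higher and 17.6% lower. At 2 months 2 passed, both lower: Slc25a33, a mitochondrial pyrimidine nucleotide carrier (−0.78, limma adjusted p = 0.0285), and Alpl, the alkaline phosphatase that also cleaves AMP (−0.79, limma adjusted p = 0.0427). The count at 2 months was 0 without 2 month WT replicate 1, without any 1 of the 4 ENT1-null arrays, with only the groups compared and with the replicate number as a block, and it was 6 without 2 month WT replicate 2. Macrophage and neutrophil lists were higher and the muscle list lower on the 6 month ENT1-null arrays, as given above, and their part in these counts was not tested.

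Of 9 tested carriers outside the 2 families, 4 were higher and 3 lower at 6 months, to be read, like the counts that follow, against 21.2% and 17.6% of all genes. The largest statistics were those of Aqp9, an aquaporin that passes small solutes (1.32 ± 0.09), and Slc15a3, a lysosomal peptide and histidine carrier (0.96 ± 0.12). Of 9 tested genes listed for extracellular adenosine, 6 were higher and 2 lower. Dpp4, a surface peptidase, rose by 1.38 ± 0.12, and Nt5e, the ectonucleotidase CD73 that makes adenosine from AMP, fell by 0.69 ± 0.09. Of 4 adenosine receptors listed, only Adora3 had a probe set that names no other gene, so the level of the others was not read. Adora3 gave 0.21 ± 0.10 (limma adjusted p = 0.152). Of 15 genes of intracellular nucleoside metabolism, 7 were higher and 1 lower. Nt5c3, a pyrimidine nucleotidase of red cells, rose by 1.58 ± 0.15, and Adk, the kinase that returns adenosine to AMP, fell by 0.88 ± 0.09. Of 8 nucleoside kinases, 4 were higher and 1, Adk, lower, with Dck, deoxycytidine kinase, highest at 2.15 ± 0.19. Of 14 lysosomal genes, set here because ENT3 is lysosomal, 8 were higher and 1 lower. That list was led by Ctss, cathepsin S of antigen-presenting cells (1.96 ± 0.24), and Unc93b1, which carries Toll-like receptors to endosomes (1.73 ± 0.24). The limma adjusted p of the genes named in this paragraph other than Adora3 lay between 0.000383 and 0.0013.

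**Figure D5:**
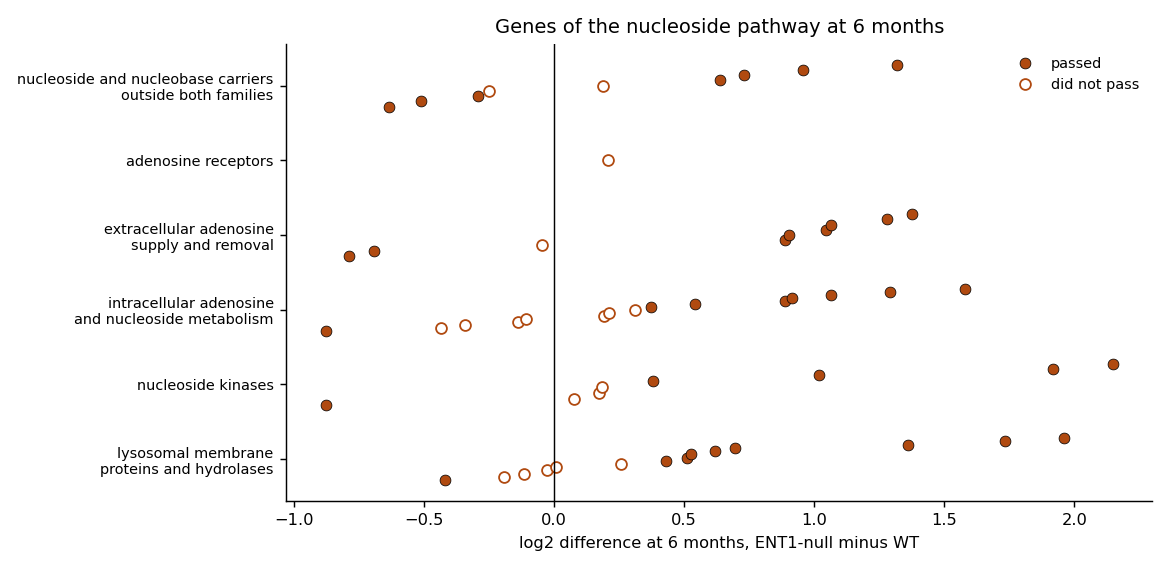
Log2 difference between ENT1-null and WT at 6 months (x axis) for each tested gene of the 6 lists set around the transporters (y axis, 1 row a list, genes spread in order of their value). Filled points passed and open points did not. Points lie on both sides of 0 in 5 lists, and the kinase row reaches from −0.88 for Adk to 2.15 for Dck.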

How the data were processed

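RNA of the thoracic annulus was measured on 8 Affymetrix arrays. Per the labels, biotinylated cRNA was made from 200 ng of Trizol-extracted total RNA of each pool. The deposited values are log2, made with RMA per the submitters' processing notes. The RMA version, the array design and a genome build were not given in the sources used here. Values ran from 2.48 to 13.8, with array medians of 6.77 to 6.82. Of 41345 probe sets 23521 had 1 symbol, 1814 several and 16010 none.

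Where a gene had several probe sets, the one with the highest mean stood for it (22180 genes), and 6654 below the 30th percentile were left out. limma 3.58.1 (R 4.3.3) was fitted with 4 group means, or with genotype and age as terms for the effect across ages. eBayes statistics were adjusted by the Benjamini-Hochberg method. Only the 6 month genotype contrast was tried on simulated data, with independent normal noise. The members, lists and alternatives were chosen with earlier results of these data known. Named genes were the members, the 3 most alike genes of each tested member (leaving out predicted genes, RIKEN clones, chemosensory receptors and small RNAs), the 5 tested neighbours on each side of Slc29a1, list genes that passed at 2 months, and the 2 with the largest statistic of each list at 6 months. Gene order and start sites came from RefSeq (GRCm38.p6). The alternatives were a block on replicate number, other filters and scalings, a robust eBayes fit with trend, tests over all probe sets, fits to only the groups compared, leaving out each array, and adjusted p below 0.1. No array was left out of the main fit and no value was imputed. With 2 arrays in a group, their number limits the precision.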

Additional observations from a re-analysis of the deposited data

Results flagged for a closer look

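No member had a genotype effect that differed between the ages at an adjusted p below 0.05. Among the other genes named beside them, 4 of the 46 genes read, members included, did so in the limma interaction, all with a larger ENT1-null excess at 6 months. Of all genes 4.45% did so, in either direction. These 4 were named for their large 6 month statistic or for following Slc28a2, so a larger value at 6 months is partly built into their choice. The interaction was 0.87 ± 0.13 for the aquaporin Aqp9 (adjusted p = 0.0383 in limma), with differences of 0.45 at 2 months and 1.32 at 6 months. It was 1.26 ± 0.18 for the peptidase Dpp4 (adjusted p = 0.0383 in limma), from 0.12 to 1.38. It was 0.96 ± 0.21 for the nucleotidase Nt5c3 (adjusted p = 0.0485 in limma), from 0.62 to 1.58. It was 1.68 ± 0.36 for the immunoglobulin segment Igkj1 (adjusted p = 0.0489 in limma), from 1.41 to 3.10. Genes of the lists set around the transporters no longer passed in the interaction without any 1 of 7 arrays, the exception being 6 month WT replicate 1.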

How the results depend on the processing

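The number of members called at 6 months lay between 2 and 3, and across ages it was 2, under every alternative run. At 2 months it was 1, but 0 with only the groups compared and between 0 and 1 when single arrays were left out. By age in ENT1-null it was 2, and between 1 and 2 without single arrays. In the interaction it was 0, and 1 (Slc28a2) at adjusted p below 0.1. No label ties a replicate number to a shared animal or day, and deviations of same-numbered arrays correlated between −0.395 and 0.415 across groups. With the replicate number as a block Slc29a1 gave −1.41 at 2 months and was the 1 gene called of 15526 (106 without the block), 3 members passed at 6 months, and no call of a member changed.

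Differences near 0 changed sign: with quantile normalization again Slc29a4 gave 0.0021 at 2 months. With centred arrays Slc29a4 gave 0.0089 and Slc29a3 0.012 at 2 months, and Slc29a2 −0.0024 by age in WT. Without single arrays, ranges spanned 0 at 2 months for Slc29a3 (−0.062 to 0.053) and Slc29a4 (−0.15 to 0.14), and at 6 months for Slc28a1 (−0.16 to 0.18). By age in WT they did for Slc29a2 (−0.0032 to 0.017), Slc28a1 (−0.17 to 0.17) and Slc28a2 (−0.056 to 0.15). By age in ENT1-null they did for Slc29a2 (−0.30 to 0.02) and Slc29a4 (−0.14 to 0.14), and in the interaction for Slc29a2 (−0.31 to 0.0098) and Slc29a4 (−0.017 to 0.27). Of the 53 list genes 26 to 39 passed at 6 months, 0 to 11 at 2 months and 0 to 20 in the interaction. The cause of these changes was not tested. A fit without 1 array of a pair assumes that the lone array varies like the other groups.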
